A study of Mus musculus with 6 samples.

Results

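The genes described are 10 members of the Fat and Dachsous branch of planar cell polarity and its close relatives: Fat1, Fat2, Fat3, Fat4, Dchs1, Dchs2, Fjx1, Vangl1, Vangl2 and Lix1l. They were picked by name among 22180 genes with a row of their own on an Affymetrix whole-transcript array, and all 10 had such a row. RNA came from the dissected cortex of mouse embryos at E12.5, 1 embryo per array. The 3 DKO (double knock-out) embryos carried loxP-flanked Lats1 and Lats2 alleles with a Nestin-Cre transgene, written Lats1F/F;Lats2F/F;Nestin-Cre, and the 3 others are labelled control with no alleles given. The Nestin promoter places Cre in neural progenitors, and their descendants inherit the recombined alleles, while other cells of the dissected tissue need not. All samples were untreated.

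Fat and Dachsous proteins are giant cadherins that bind each other across the boundary between neighbouring cells. Fat4 and Dchs1 are the mammalian pair closest to the fly receptor and ligand, and loss of either disturbs progenitors and neuron placement in the cortex. The fly kinase Four-jointed, whose mouse relative is Fjx1, phosphorylates their cadherin repeats and tunes the binding. In flies Fat restrains the YAP homologue through the Warts kinase, the homologue of Lats1 and Lats2, and some of the genes of this branch are themselves set by that pathway. The comparison of DKO with control cortex shows whether their transcripts differed in level when the Lats kinases were targeted.

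Values are on a log2 scale after RMA (robust multi-array average), so a difference of 1 is a 2-fold difference in signal, and levels of different genes cannot be set against each other. Array medians lay between 5.94 and 5.97 and correlations between arrays between 0.978 and 0.994, and 3 arrays per group limit the precision. Of the targeted genes, Lats1 was lower in DKO by a log2 difference of -0.91 ± 0.14 (SE, n = 3 per group, limma adjusted p 0.0189), while Lats2 had 0.24 ± 0.10 (SE, limma adjusted p 0.285), or 0.14 without control 2. The Lats1 call was lost without control 1, control 3, DKO 1 or DKO 3, with adjusted p between 0.0571 and 0.0875, and with all rows tested (0.155). Probes outside a deleted exon need not show the deletion, and the positions of the probes for Lats1 and Lats2 are not given in the sources used here. Over 16724 genes tested with limma, 288 passed an adjusted p of 0.05 (228 rose, 60 fell), which is 1.72% of genes. Leaving out control 1, 2 or 3 gave 137, 140 or 121 increases with 11, 53 or 13 decreases. Leaving out DKO 1, 2 or 3 gave 131, 260 or 130 increases with 14, 54 or 14 decreases.

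None of the Fat, Dachsous and Vangl genes passed the test. Of the 10 members 9 were bright enough to be tested, and of these 0 rose, 0 fell and 9 did not pass, beside 1.36% of all genes that rose, 0.359% that fell and 1.72% called in either direction. At an unadjusted limma p under 0.05 stood 3 of the 9, Fat4, Fat1 and Dchs1, beside 15.6% of all genes. The 3 did not share a direction: Fat4 and its partner Dchs1 had lower means in DKO, Fat1 a higher one. Differences of all 9 were small. The 95% interval that reached farthest, that of Fat4, ended at -0.48, so differences in signal beyond 1.39-fold lay outside the interval of every tested member. For Dchs2 and Vangl1, whose signal over background is unknown, the interval need not bound the change in transcript. The median of the absolute differences was 0.12 over the 9 members and 0.08 over all genes tested. The groups did not overlap for 4 of the 9, beside 21.6% of all genes. In Fat4, Dchs1 and Lix1l each DKO array was lower than each control array (13.4% of all genes), and in Fat1 each was higher (8.22%).

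**Figure D1:**
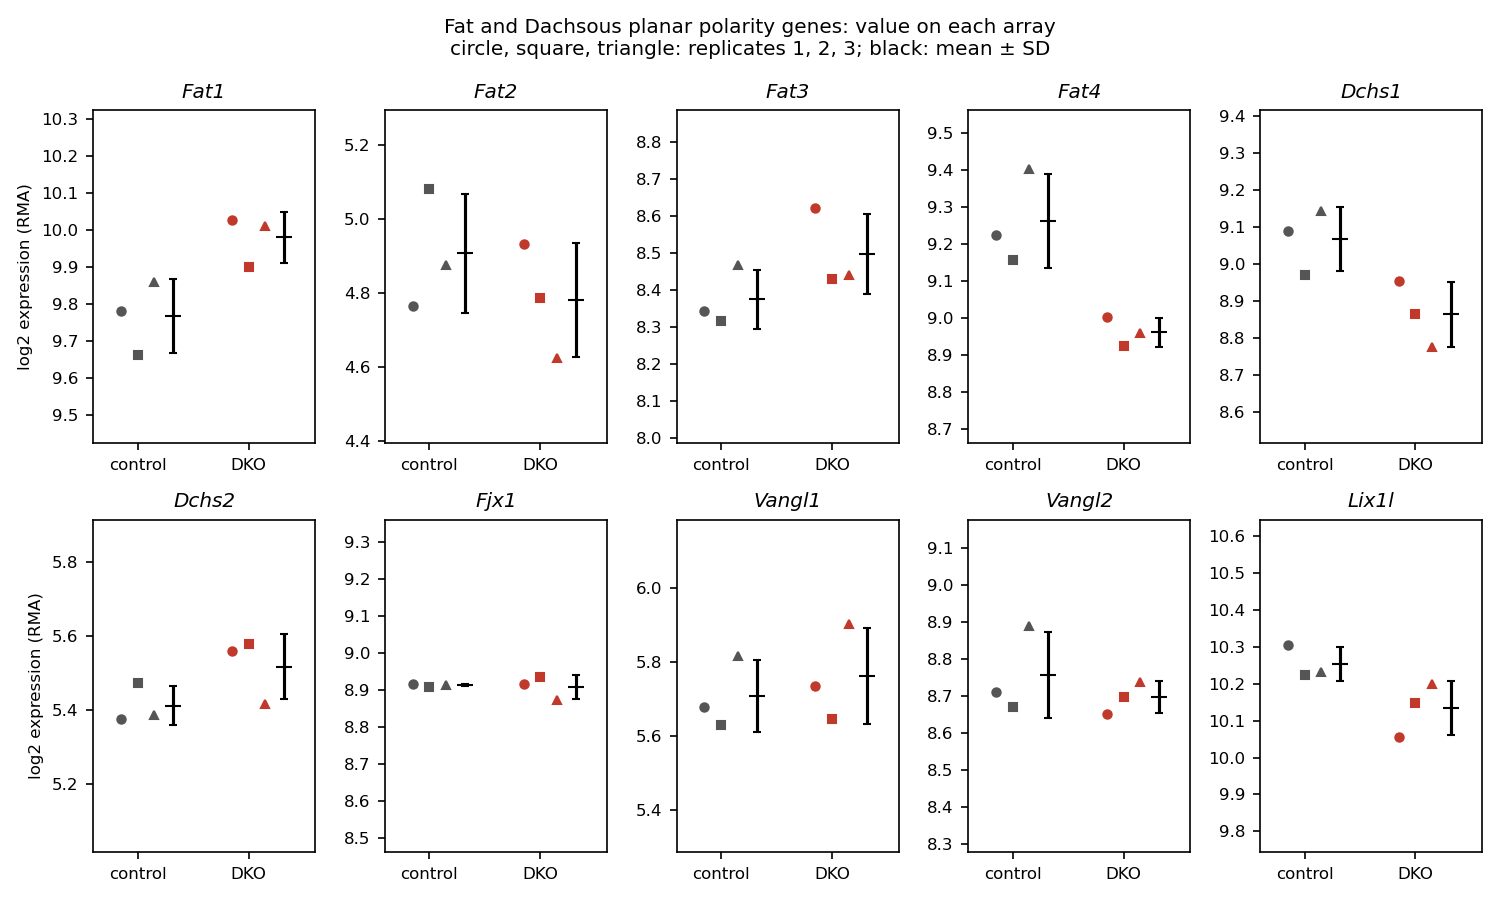
Log2 expression of each of the 10 genes on each array, control in grey and DKO in red, with replicates 1, 2 and 3 as circle, square and triangle and the mean ± SD in black; all panels span the same range. Fat4 in DKO sits between 8.92 and 9.00, under all control arrays, while the control and DKO values of Fjx1 lie on top of each other.

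The receptors come first. Fat4, the Dchs1-binding receptor, stood at 9.22, 9.16 and 9.40 in controls 1, 2 and 3 and at 9.00, 8.92 and 8.96 in DKO 1, 2 and 3. Each DKO array was lower than each control array, and the DKO arrays were closer together than the controls. The means were 9.26 ± 0.13 (SD, n = 3) and 8.96 ± 0.04 (SD, n = 3), a log2 difference of -0.30 ± 0.08 (SE) or 1.23-fold, with a 95% interval from -0.48 to -0.12. With a limma adjusted p of 0.110 Fat4 did not pass, and the exact permutation test (two-sided) gave p = 0.1, which is the floor for 3 against 3. With a trended variance the limma adjusted p was 0.0485, and the range over 16 other settings was 0.0485 to 0.363. Fat4 was also the only member with 2 rows. The other row had a lower signal, but lay above the limit under which genes were left out as dim. That row had means of 5.29 ± 0.15 (SD, n = 3) in control and 5.29 ± 0.12 (SD, n = 3) in DKO. Its log2 difference was 0.0042. The average of both rows gave -0.15 in place of -0.30.

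Fat1, the receptor linked to actin and the apical junctions of neuroepithelium, had its difference on the other side of 0. It measured 9.78, 9.66 and 9.86 in the controls and 10.03, 9.90 and 10.01 in the DKO arrays. The lowest DKO array was 0.04 above the highest control array, so the groups were separate by little. Means were 9.77 ± 0.10 (SD, n = 3) and 9.98 ± 0.07 (SD, n = 3), giving a log2 difference of 0.21 ± 0.07 (SE) or 1.16-fold, a 95% interval from 0.04 to 0.38 and a limma adjusted p of 0.218.

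Fat3, a receptor best known from the shaping of retinal amacrine neurons, had overlapping groups. Its controls read 8.34, 8.32 and 8.47 and its DKO arrays 8.62, 8.43 and 8.44. DKO 1 alone lay above all controls. The log2 difference was 0.12 ± 0.08 (SE), with an interval from -0.05 to 0.30 and a limma adjusted p of 0.508. Without DKO 1 it was 0.06. Fat2, best known in the cerebellum, had a mean below the limit for dim genes (5.02) and was left out of the test. It read 4.76, 5.08 and 4.88 in controls and 4.93, 4.79 and 4.62 in DKO arrays, and with no filter its difference was -0.13 ± 0.11 (SE). Whether its signal was above background cannot be said without detection calls, which were not used here.

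The ligands come next. Dchs1, the ligand of Fat4, measured 9.09, 8.97 and 9.14 in controls and 8.95, 8.86 and 8.78 in DKO arrays. The highest DKO array, DKO 1, was 0.02 below the lowest control. The means were 9.07 ± 0.09 (SD, n = 3) and 8.86 ± 0.09 (SD, n = 3), a log2 difference of -0.20 ± 0.07 (SE), with an interval from -0.37 to -0.03 and a limma adjusted p of 0.240. Dchs2, the second Dachsous gene, was near the limit for dim genes, at 5.38, 5.47 and 5.39 in controls and 5.56, 5.58 and 5.42 in DKO arrays. DKO 3 lay among the controls. Its difference was 0.11 ± 0.07 (SE), with an interval from -0.05 to 0.26 and a limma adjusted p of 0.524. Dchs1 and Dchs2 were not compared with each other.

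Fjx1, the Four-jointed relative, showed the smallest difference of the 9 genes. It stood at 8.92, 8.91 and 8.91 in controls and at 8.92, 8.93 and 8.87 in DKO arrays. Its log2 difference was -0.0050 ± 0.06 (SE), and the interval from -0.14 to 0.13 leaves out a change of 1.16-fold or more (the size of the Fat1 difference). The residual SD of 0.02 was at percentile 0.933 of all genes tested. The sign of so small a difference carries no information: it was 0.01 with arrays centred on their median.

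Vangl1 and Vangl2 encode four-pass membrane proteins of the core polarity complex. Vangl2, whose loss leaves the mouse neural tube open, stood at 8.71, 8.67 and 8.89 in controls and at 8.65, 8.70 and 8.74 in DKO arrays. Control 3 was the highest, and the other 5 arrays lay between 8.65 and 8.74. The difference was -0.06 ± 0.07 (SE), with an interval from -0.23 to 0.11 and a limma adjusted p of 0.749. Without control 3 it was 0.0055. Vangl1 read 5.68, 5.63 and 5.82 in controls and 5.74, 5.65 and 5.90 in DKO arrays, so the groups overlapped throughout. Its difference was 0.05 ± 0.09 (SE, limma adjusted p 0.810), and -0.02 without DKO 3.

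**Figure D2:**
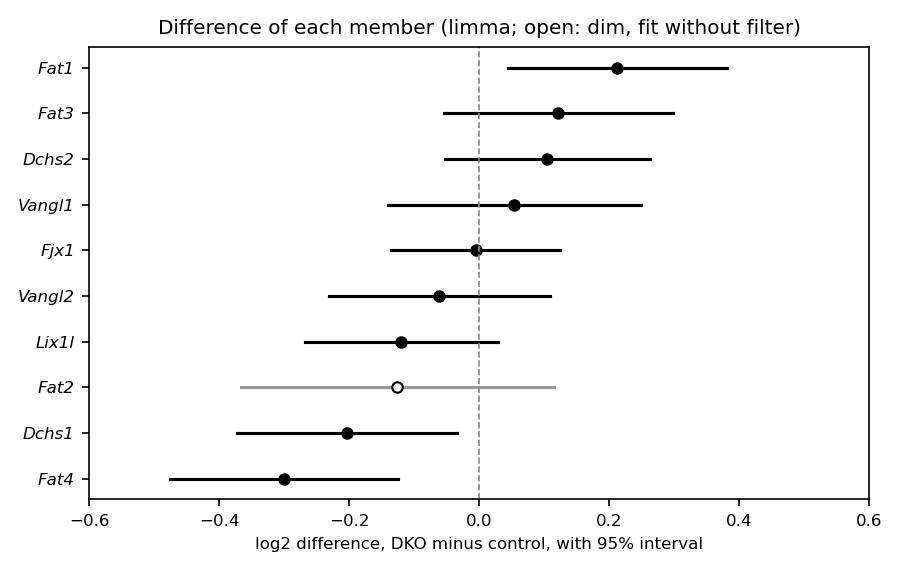
Log2 difference of each member, DKO minus control, as a point with its 95% interval from limma; Fat2 (open, grey) comes from the fit without the filter on dim genes. The intervals of Fat1, Dchs1 and Fat4 leave out 0 before adjustment for the number of genes, and those of the other members cross it.

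Lix1l encodes a relative of Lix1 (limb expression 1), and the fly homologue of both, lowfat, binds the Fat and Dachsous tails. Its controls stood at 10.31, 10.22 and 10.23 and its DKO arrays at 10.06, 10.15 and 10.20. All DKO arrays were below all controls, DKO 1 by the widest margin. The log2 difference was -0.12 ± 0.07 (SE), with an interval from -0.27 to 0.03 and a limma adjusted p of 0.431. Lix1 itself, taken from the list of partners, stood at 9.34, 9.43 and 9.42 in controls and 9.78, 9.54 and 9.57 in DKO arrays. Its difference was 0.24 ± 0.08 (SE, limma adjusted p 0.204), opposite in sign to that of Lix1l.

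Pairs of genes were then compared within each array, which removes deviations that both share. A total of 6 pairs was tested by exact two-sided permutation over arrays, where p cannot go below 0.1 and, adjusted over the 6 pairs, the lowest reached was 0.20. The widest separation for its spread was that of Fat1 and Fat4. Fat1 minus Fat4 was 0.56, 0.51 and 0.46 in controls and 1.03, 0.98 and 1.05 in DKO arrays. The groups did not overlap, and the shift of 0.51 ± 0.04 (SE) exceeded the spread within groups (SD 0.05 and 0.04), with an exact p = 0.1. Each DKO array was higher in Fat1 and lower in Fat4 than each control. The lack of overlap and the exact p were therefore fixed by the single genes and are no further evidence. The shift was 0.49 to 0.54 when 1 array was left out and 0.36 with the mean of both Fat4 rows. Fat3 minus Fat4 was -0.88, -0.84 and -0.94 in controls and -0.38, -0.49 and -0.52 in DKO arrays, a shift of 0.42 ± 0.05 (SE, exact p = 0.1), or 0.27 with the mean of both Fat4 rows. These 2 pairs share Fat4 and are not independent of each other.

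The receptor Fat4 and its ligand Dchs1 gave overlapping values. Fat4 minus Dchs1 was 0.14, 0.19 and 0.26 in controls and 0.05, 0.06 and 0.18 in DKO arrays, a shift of -0.10 ± 0.06 (SE, exact p = 0.2), which became 0.06 with the mean of both Fat4 rows and -0.06 without control 3. Fat1 minus Fat3 shifted by 0.09 ± 0.05 (SE, exact p = 0.2) and Vangl1 minus Vangl2 by 0.12 ± 0.06 (SE, exact p = 0.3), both with overlapping groups. Without DKO 3 these shifts were 0.05 and 0.07, and without DKO 2 that of Vangl1 minus Vangl2 was 0.17. Lix1l minus Lix1 was 0.96, 0.80 and 0.81 in controls and 0.27, 0.61 and 0.63 in DKO arrays. DKO 1 was the lowest, and the groups did not overlap. The shift was -0.36 ± 0.13 (SE, exact p = 0.1), and -0.24 without DKO 1. Here too the single genes had fixed the lack of overlap and the exact p, with Lix1l lower and Lix1 higher in each DKO array. Such shifts show an unequal difference of the 2 genes of a pair on these arrays, not that either stayed the same.

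**Figure D3:**
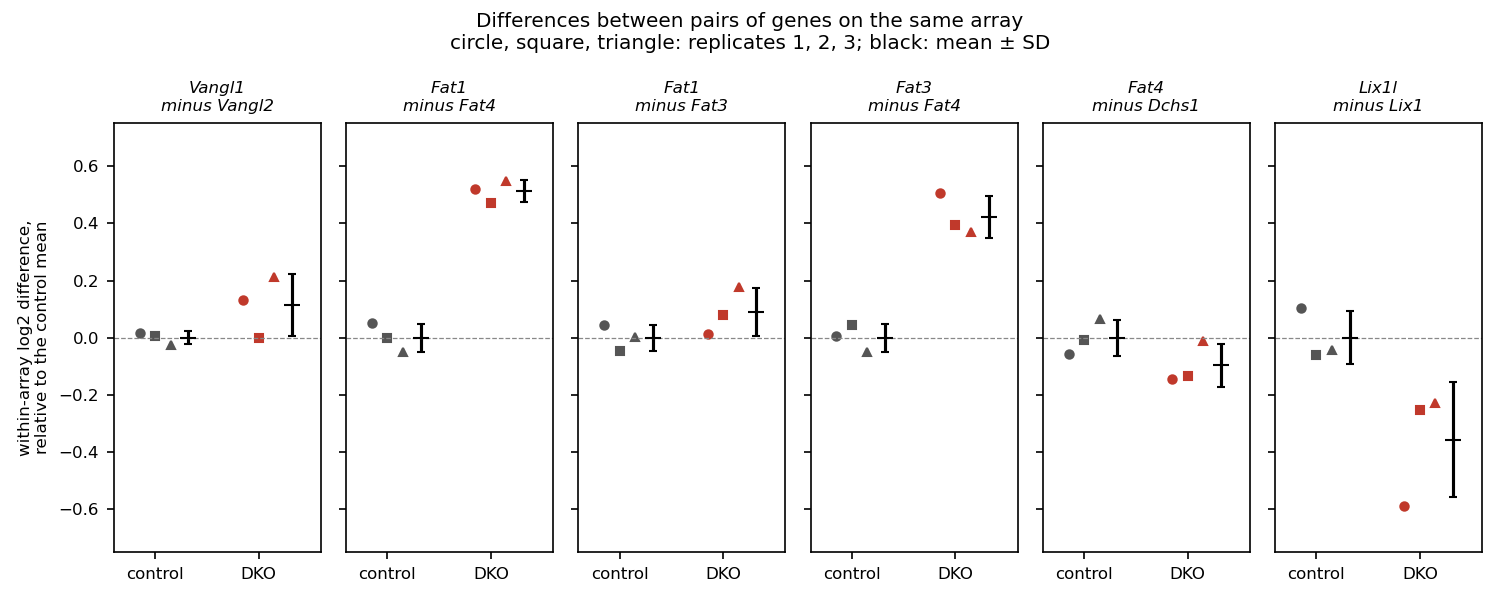
Within-array log2 difference of each of the 6 pairs, drawn relative to the control mean of the pair (dashed line), with control in grey, DKO in red, replicates 1, 2 and 3 as circle, square and triangle, and the mean ± SD in black. Fat1 minus Fat4 and Fat3 minus Fat4 lie higher in all DKO arrays, by 0.51 and 0.42 on average.

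Genes with the pattern most like Fat4 over the 6 arrays, by Pearson correlation as a description, were Lrp3, a receptor of the LDL receptor family (0.999), Kif26b, an atypical kinesin (0.998), and Ap1s2, an adaptor subunit of clathrin coats (0.994). None of them passed the limma test, with adjusted p of 0.216, 0.0652 and 0.112. With 6 arrays, 228 genes had a correlation above 0.95 with Fat4, so a place at the top of that list is not rare, and Dchs1 reached 0.92. Most like Fat1 were Msh3, a DNA mismatch repair gene (0.995), Fermt2, which encodes the integrin activator kindlin-2 (0.992), and Spred1, an inhibitor of Ras signalling (0.990). Their log2 differences were 0.17, 0.16 and 0.16, and 89 genes exceeded 0.95.

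Genes of proteins that bind, modify or act with Fat and Dachsous included 3 increases. Of 21 partner genes with a row, 3 rose, 0 fell and 18 did not pass, beside 1.72% of all genes, with a median of -0.02 against -0.03 over all genes tested. Earlier results on these arrays had shown Ajuba and Wwc1 to be higher before the list was drawn up, so their 2 calls are no independent evidence. Ajuba, a LIM protein that binds Lats kinases and whose fly relative lies downstream of Fat, went from 8.18, 8.14 and 8.39 in controls to 9.88, 9.56 and 9.87 in DKO arrays. Every DKO array was over 1 log2 unit above every control array, and the log2 difference was 1.54 ± 0.11 (SE) or 2.90-fold, with a limma adjusted p of 0.000321.

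Fbxl7, an F-box protein whose fly homologue acts with Fat in controlling the myosin Dachs, stood at 7.95, 7.90 and 8.05 in controls and 8.80, 8.70 and 8.82 in DKO arrays. The groups were clearly apart, and Fbxl7 rose by 0.81 ± 0.07 (SE) or 1.75-fold, with a limma adjusted p of 0.000765. Wwc1, the scaffold Kibra upstream of Lats, rose by 0.85 ± 0.08 (SE, limma adjusted p 0.000985). Each of these 3 calls held under all 16 other settings. Pals1 (listed by its older symbol Mpp5), an apical scaffold that binds Crumbs, had a difference of 0.56 ± 0.12 (SE) and a limma adjusted p of 0.0549. It passed under 7 of the 16 other settings, among them without DKO 2 (0.0238). The other partners, such as Dlg5 at -0.16 ± 0.06 (SE) and Nf2 at -0.11 ± 0.09 (SE), did not pass; these 2 were chosen after their values were seen.

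Start sites are shown for a member and for the partner with the widest difference, to compare them for the hexamer recognised by TEAD factors, the DNA-binding partners of YAP and TAZ. It reads GGAATG on one strand and, seen from the other, CATTCC. The sequences are from RefSeq (GRCm38.p6) and end at the base before the annotated start of the gene; capitals mark the hexamer.
Lix1l, chr3:96600883-96601132, plus strand: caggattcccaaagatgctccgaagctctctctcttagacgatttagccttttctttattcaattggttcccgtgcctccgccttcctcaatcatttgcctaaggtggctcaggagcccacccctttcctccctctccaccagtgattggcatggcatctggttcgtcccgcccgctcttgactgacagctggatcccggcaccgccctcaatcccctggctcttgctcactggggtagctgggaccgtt
Ajuba, chr14:54577662-54577911, minus strand: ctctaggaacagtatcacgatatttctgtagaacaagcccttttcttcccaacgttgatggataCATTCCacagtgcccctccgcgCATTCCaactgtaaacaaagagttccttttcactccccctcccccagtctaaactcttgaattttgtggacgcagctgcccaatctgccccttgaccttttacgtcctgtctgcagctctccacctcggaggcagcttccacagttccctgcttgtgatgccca
Ajuba held 2 copies, both as CATTCC, which began 186 and 164 bases before the start. Fbxl7 and Wwc1, which also rose, held 0 copies each. Lix1l held 0, and so did Vangl2 and Lix1. Among 32851 windows of 250 bases in the table, 12.6% held at least 1 copy on either strand and 0.992% held 2 or more. These shares cover all windows, with no selection for those that end at the start of a gene. Of the members, 7 had a window (not Dchs1, Fjx1 and Vangl1). The windows of Fat1, Fat2, Fat3, Fat4 and Dchs2 end 583 to 25248 bases inside the gene and were not read as promoters. Of these, Fat1 and Fat2 held 1 copy each. A match is a match of letters only, and no binding was measured.

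The other core planar polarity genes gave no call. Of 14 with a row, 0 rose and 0 fell by limma, beside 1.72% of all genes called in either direction. An unadjusted limma p under 0.05 was reached by 6 (15.6% of all genes did), and 11 had a lower mean in DKO (60.2% of all genes). The median of the list was -0.10 against -0.03 over all genes tested. For 6 of them each DKO array was lower than each control, beside 13.4% of all genes. The cadherin Celsr1, which joins polarity complexes across cell borders, stood at 9.55, 9.45 and 9.84 in controls and 9.11, 9.40 and 9.31 in DKO arrays. DKO 2 came within 0.05 of control 2. The log2 difference was -0.34 ± 0.11 (SE, limma adjusted p 0.206), or -0.23 without control 3. Its relative Celsr2 had -0.29 ± 0.09 (SE, limma adjusted p 0.156), the receptor Fzd6 -0.28 ± 0.10 (SE, limma adjusted p 0.225), and Ankrd6, the Dishevelled-binding protein Diversin, -0.34 ± 0.10 (SE, limma adjusted p 0.156). Control 3 was the highest array for all 4 of these genes.

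Ligands, receptors and effectors of planar polarity included 1 call. Of 17 with a row, 1 rose, 0 fell and 16 did not pass, beside 1.72% of all genes called, with a median of 0.02 against -0.03 over all genes tested. Intu, the mouse Inturned, a polarity effector needed for the assembly of cilia, read 6.60, 6.76 and 6.91 in controls and 7.58, 7.50 and 7.60 in DKO arrays. It rose by 0.80 ± 0.09 (SE, limma adjusted p 0.00257), and the call held under all 16 other settings. This list too was chosen with earlier results of these data known, so the call is no independent evidence. Daam2, a formin, had a difference of 0.60 ± 0.13 (SE, limma adjusted p 0.0649). It passed under 3 of the 15 other settings that tested it. These were a trended variance (limma adjusted p 0.0389), array weights (0.0277) and the fit without DKO 2 (0.00321), which made 2 calls in the list. Wnt5a, a ligand of this branch, had 0.38 ± 0.08 (SE, limma adjusted p 0.0680) and passed with array weights only (0.0489). The receptor Ryk had 0.10 ± 0.07 (SE, limma adjusted p 0.547), or 0.05 without DKO 1.

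Cadherins outside the Fat and Dachsous families gave 1 call among 25 tested, beside 1.72% of all genes. Cdh6, a type II classical cadherin with regional expression in the early forebrain, stood at 8.31, 8.27 and 8.34 in controls and 9.16, 9.05 and 9.07 in DKO arrays. It rose by 0.79 ± 0.06 (SE) or 1.72-fold, with a limma adjusted p of 0.000514. The other 24 did not pass, and the median of the list was -0.04 against -0.03 over all genes tested. Cdh22 had -0.28 ± 0.07 (SE, limma adjusted p 0.0858), Cdh4 -0.33 ± 0.10 (SE, limma adjusted p 0.148) and the protocadherin Pcdh8 -0.34 ± 0.10 (SE, limma adjusted p 0.165). Without DKO 2, Cdh4 and Pcdh8 passed (adjusted p 0.0362 and 0.0181), so that 2 members of the list fell. With the mean of a gene's rows Cdh4 had -0.22.

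**Figure D4:**
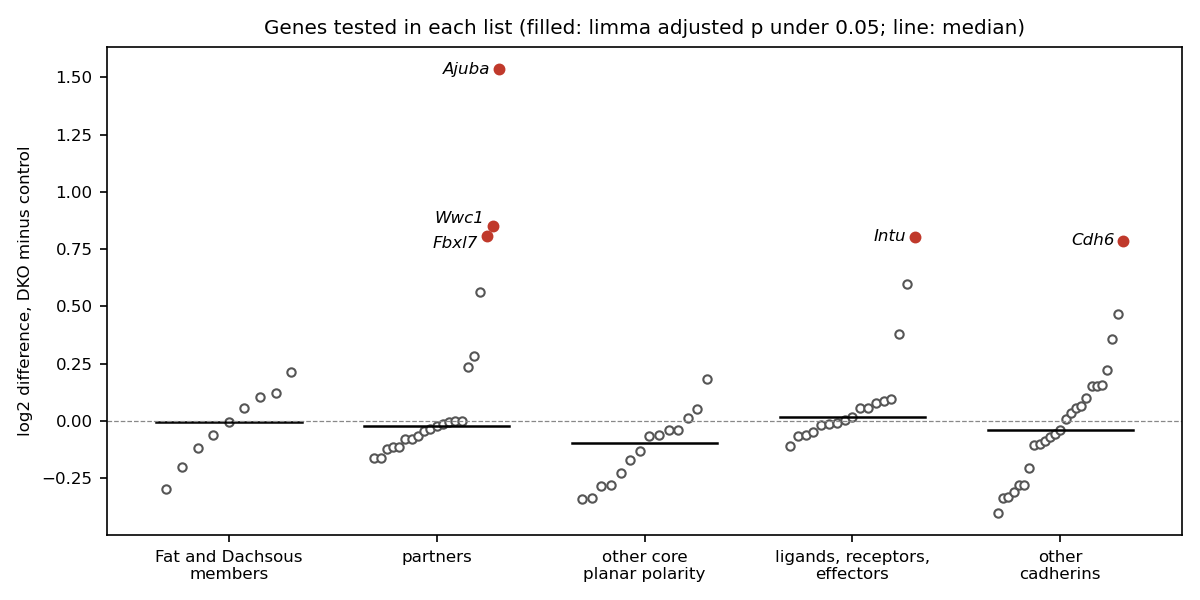
Log2 difference, DKO minus control, of each gene tested in 5 groups: the Fat and Dachsous members, their partners, the other core planar polarity genes, polarity ligands, receptors and effectors, and other cadherins. Filled red points passed a limma adjusted p of 0.05 (Ajuba, Wwc1, Fbxl7, Intu and Cdh6), open points did not, and horizontal lines are group medians.

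Markers of cell types in the tissue were read from the same arrays, since fewer cells of a type and less RNA per cell cannot be told apart in bulk cortex. Of all genes tested, 60.2% had a lower and 39.8% a higher mean in DKO, 1.36% rose and 0.359% fell. Neuron markers had lower means in DKO for 12 of 12 genes, 0 of them past the test, and the mean log2 level of the list was 9.62 to 9.80 in controls and 9.38 to 9.50 in DKO arrays. Intermediate progenitor markers had lower means for 8 of 8, of which 4 fell, with list levels of 8.63 to 8.89 and 8.16 to 8.33; the log2 differences of Mfng and Gadd45g were -0.45 and -0.53. Of the 9 members tested, 5 had lower means in DKO and 4 higher ones, and 0 passed the test. Among the 14 other core planar polarity genes 11 had lower means and 3 higher ones, and 0 passed. A relation of these genes to the markers from array to array within a group was not tested. The mean level of the apical progenitor list did not separate, at 9.94 to 9.99 in controls and 9.94 to 9.98 in DKO arrays. Its genes differed in both directions. Each DKO array was higher than each control for 4 of 12 genes (8.22% of all genes) and lower for 3 (13.4%). By limma 1 gene rose (Slc1a3, 0.40) and 1 fell (Hes5, -0.90). The neuron markers with the smallest p were Nhlh1 at -0.36 ± 0.08 (SE, limma adjusted p 0.0622) and Elavl3 at -0.31 ± 0.08 (SE, limma adjusted p 0.115).

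Hem and choroid plexus markers had higher means for 9 of 9, of which 3 rose, with list levels of 5.94 to 6.29 in controls and 6.47 to 6.96 in DKO arrays. Among them Lmx1a, a regulator of the cortical hem, rose by 0.47 and Foxj1, a regulator of motile cilia, by 0.40. Endothelial and pericyte markers had lower means for 12 of 12 with 0 past the test, at 7.46 to 7.63 and 6.94 to 7.47, DKO 2 being the lowest. Meningeal and mesenchymal markers overlapped, at 7.25 to 7.57 and 6.73 to 7.77, with DKO 2 again the lowest and 0 of 8 past the test. Ventral telencephalic markers had lower means for 7 of 7 with 0 past the test, at 7.20 to 7.55 and 7.08 to 7.24. Microglial markers stood at 6.39 to 6.49 and 6.15 to 6.43, with 0 of 4 past the test and Aif1 below the limit for dim genes. In these 4 lists the log2 differences of the 2 genes with the smallest p were -0.35 (Rgs5) and -0.34 (Cldn5), -0.31 (Twist1) and -0.38 (Dcn), -0.66 (Dlx2) and -0.47 (Dlx5), and -0.22 (Csf1r) and -0.16 (P2ry12). The part of these shifts in the differences of Fat4, Dchs1 and Fat1 was not tested.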

How the data were processed

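Total RNA of 6 cortices (100 ng each) was labelled with biotin and hybridised to whole-transcript arrays, per the labels' protocols. The authors' deposited values are log2 values made by RMA, per the submitters' processing notes; no version and no genome build of the probes is given in the sources used here. Since RMA equalises the arrays' distributions, a shift shared by every transcript is invisible.

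Of 41345 rows, 23521 had exactly 1 gene symbol in the platform's annotation, 1814 had several and 16010 are unnamed here; for each gene the row with the highest mean was used. Dim genes, with a mean under 5.02 (percentile 25 of those rows), were left out. DKO was compared with control with limma's lmFit and eBayes (limma 3.58.1, R 4.3.3, no covariate, two-sided, Benjamini-Hochberg over 16724 genes); 4 residual degrees of freedom were joined by 4.44 prior ones. The scripts were tested on simulated data. The labels call the samples independent embryos, and no 2 arrays held the same values.

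The members and lists were chosen with earlier results of these data known. Named were all members, Lats1 and Lats2, the 4 genes with the smallest p of each list of related genes, the 2 with the smallest p of each marker list, and the 3 genes most correlated with each of the 2 members of smallest p; other names are examples chosen after their values were seen. Lists were described by counts and medians, with no list test. Of 166 list entries 161 had a row. Alternatives tried were the filter, the row per gene, the normalization, the variance model, array weights, a replicate block, testing all rows, and leaving out each array.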

Additional observations from a re-analysis of the deposited data

How the results depend on the processing

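The direction of Fat1, Fat3, Fat4, Dchs1 and Lix1l held under all 16 alternatives and that of Dchs2 under the 15 that tested it. Much of this was fixed in advance. The filters, the variance models, the replicate block and the test of all rows leave a gene's difference as it is. For Fat1, Fat4, Dchs1 and Lix1l, whose groups did not overlap, leaving out an array cannot turn the sign either. With a trended variance 1 member fell (Fat4), and under the other alternatives 0 passed. The sign of Fjx1 turned with arrays centred on the median (0.0105) and ran from -0.0183 to 0.0123 when 1 array was left out; Vangl1 ran from -0.0164 to 0.11 and Vangl2 from -0.10 to 0.0055. Fat4 minus Dchs1 turned to 0.0555 with the mean of a gene's rows. Over all genes the number that fell was 134 with a filter at the 50th percentile, 162 with a trended variance, 123 with array weights and 3 with all rows tested, where 68 rose. Without 1 array, 121 to 260 rose and 11 to 54 fell. Polarity ligands, receptors and effectors gave 2 increases with a trended variance, 3 with array weights and 1 to 2 without 1 array. Other cadherins gave 1 decrease with the filter at the 50th percentile and 0 to 2 without 1 array. The causes were not tested.

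For same-numbered control and DKO samples the correlations of their deviations from the group means were -0.10, 0.21 and 0.15. Correlations of differently numbered samples are not reported here, so these values alone do not say whether the numbers mark pairs. With the replicate block 176 genes rose and 24 fell, and 0 members passed. No detection calls were at hand, so the signal of Fat2, Dchs2 and Vangl1 over background is unknown.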
